A study of Mus musculus with 2 samples.

Results

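Natural killer (NK) cells of mouse pancreatic tumours were measured by droplet single-cell RNA sequencing, and were chosen by their measured transcript counts. A cell barcode was taken when Ncr1 and Klrb1c together had 2 or more unique molecular identifiers (UMIs, counted transcripts). It also had to show no more than 1 UMI over Cd3d, Cd3e, Cd3g and Trac and no more than 5 over Krt8, Krt18 and Krt19, to leave out T cells and epithelial cells. Kept cells had 500 or more genes and a mitochondrial share of UMIs of 15% or less. This gave 128 NK cells of 22472 kept cells, 21 of them among the 11664 control cells and 107 among the 10808 knockout cells. The tumours were KPC pancreatic cancer cells implanted into the pancreas and harvested on day 21. The control library pooled the tumours of 5 Porcnfl/fl littermates, which carry the floxed allele without Cre. The knockout library pooled the tumours of 5 Csf1r-Cre;Porcnfl/fl mice, in which Cre follows the Csf1r promoter of the monocyte and macrophage lineage. Both groups thus carried the floxed allele, and the implanted KPC cells do not carry the genotype of the mice. Tumours of both were dissociated for 30 min at 37 °C in 1.5 mg/mL collagenase V with 0.1 mg/mL DNase I, and live cells were loaded. With 1 library per group there are no replicates and no test between genotypes, and every difference below lies between 2 libraries. Intervals in parentheses are exact 95% intervals for counting error only.

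NK cells are innate lymphocytes that recognise stressed or transformed cells through a balance of activating and inhibitory receptors, without a rearranged antigen receptor. They kill by releasing perforin and granzymes from granules, and they recruit and instruct other leukocytes with chemokines such as XCL1 and CCL5 and with interferon gamma. Ncr1 encodes the activating receptor NKp46, and Klrb1c encodes NK1.1. In solid tumours, NK cells range from mature, circulating-type cells rich in granzymes to tissue-resident cells that make more cytokine and less granzyme. Porcn encodes the enzyme that attaches the lipid that Wnt proteins need for secretion.

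The promoters of 4 genes that the results describe are shown because they carry the same short sequence. They are Ncr1, which chose the cells, the granzyme genes Gzma and Gzmc, and Xcl1, whose level was higher in cells without Gzma. Gzma was at a higher level in the knockout library. Gzmc was at a lower level there, but that rests on a single control cell with 148 of 183 control UMIs. Each line is the 250 bases before a RefSeq transcription start on GRCm38.p6, read 5′ to 3′ on the gene's strand, with the RUNX core TGTGGT or its reverse complement ACCACA in capitals. The windows are chr7:4337465-4337714 (plus strand) for Ncr1, chr13:113100982-113101231 (minus) for Gzma, chr14:56234658-56234907 (minus) for Gzmc and chr1:164935523-164935772 (minus) for Xcl1.
Ncr1: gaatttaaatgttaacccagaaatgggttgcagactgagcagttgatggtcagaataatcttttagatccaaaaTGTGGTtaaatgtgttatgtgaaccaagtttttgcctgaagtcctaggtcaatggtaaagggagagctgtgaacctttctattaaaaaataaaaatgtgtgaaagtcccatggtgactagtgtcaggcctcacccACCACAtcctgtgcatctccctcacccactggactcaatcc
Gzma: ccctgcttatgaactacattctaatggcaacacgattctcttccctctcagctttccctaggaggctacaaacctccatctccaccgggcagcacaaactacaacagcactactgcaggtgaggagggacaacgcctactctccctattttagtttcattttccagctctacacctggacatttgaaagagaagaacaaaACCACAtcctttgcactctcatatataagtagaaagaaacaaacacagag
Gzmc: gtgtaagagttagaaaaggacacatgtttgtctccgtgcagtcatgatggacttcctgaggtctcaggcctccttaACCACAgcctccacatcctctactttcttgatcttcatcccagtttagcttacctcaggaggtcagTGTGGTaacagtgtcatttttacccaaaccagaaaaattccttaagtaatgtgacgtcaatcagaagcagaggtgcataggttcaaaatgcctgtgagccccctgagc
Xcl1: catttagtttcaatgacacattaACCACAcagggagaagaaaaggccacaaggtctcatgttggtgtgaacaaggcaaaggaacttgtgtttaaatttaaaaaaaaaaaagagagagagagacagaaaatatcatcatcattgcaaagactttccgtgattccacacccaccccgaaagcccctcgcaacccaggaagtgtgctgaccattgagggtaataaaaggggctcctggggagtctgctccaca
RefSeq promoters were at hand for 7 of the 8 genes looked up, and all 7 (Gzma, Gzmb, Gzmc, Klrb1c, Ncr1, Prf1 and Xcl1) held this core on one strand or the other. Of 32851 promoters of the same length, 14.0% held it. Ccl5 was the gene without an entry, and Ncr1 has 2 listed starts, of which the first in the table is shown. In Gzma the match lies 50 bases before the start, in Ncr1 176 and 41, in Gzmc 174 and 108, and in Xcl1 227. The other motifs searched on both strands were T-box AGGTGTGA, ETS ACCGGAAG, STAT TTCNNNGAA, NF-kB GGGAATTCC and TCF/LEF CTTTGAA, and none of the 7 promoters held any of them. Of all promoters, 1.12%, 1.72%, 7.02%, 0.210% and 4.46% held these, in that order. A match is a description of letters in this window and says nothing about binding. Runx3, a RUNX factor of cytotoxic lymphocytes, was at 283 CPM (UMIs of the gene per 1000000 UMIs) in control NK cells and 348 in knockout NK cells.

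Most of the cells carried transcripts of NK cells beyond the genes of the rule, although other cell types share some of them. Tyrobp (DAP12, an adaptor of activating receptors) was found in 17 of 21 control and 103 of 107 knockout NK cells, and Nkg7, a granule protein of cytotoxic lymphocytes, in 18 and 103. Eomes and Tbx21, the T-box factors of NK cells, had UMIs in 11 and 12 control cells and in 42 and 54 knockout cells. Some cells of both libraries had no UMI of Tyrobp, Nkg7, Eomes or Tbx21. In the CD8 T cells defined below, Nkg7 was in 86.5% of control and 91.1% of knockout cells, and Tbx21 in 40.5% and 36.9%. Tyrobp was in 0% and 3.33% of these CD8 T cells, but in 94.0% and 92.8% of macrophages with at least 5 C1q UMIs. Of the markers Ncr1, Klrb1c, Gzma and Xcl1, the first and second chose the cells, and levels of Ncr1 (741 and 733 CPM) and Klrb1c (331 and 326 CPM) are given as a description. Cd8a, Cd8b1, Cd4 and Foxp3 had no UMI in the NK cells of either library. Other T cell genes did. The T cell list of 13 genes, including those the rule limits, was at 312 CPM in control and 628 CPM in knockout. That ratio was 2.01 (1.39 to 3.01), and Trbc2 (48.7 and 209 CPM) and Cd28 were at least 2-fold higher in knockout. Genes of gamma-delta T and NKT cells were at 107 and 224 CPM, a ratio of 2.09 (1.11 to 4.33), with Trdc at least 2-fold higher. Both rule genes were seen together in 15 control and 66 knockout cells. Just outside the limit, 9 control and 35 knockout cells had exactly 1 Ncr1 or Klrb1c UMI, and just inside it 6 and 26 cells had exactly 2. Cells that met all other limits but had 2 or more CD3-gene UMIs numbered 3 and 29, and those with 6 or more keratin UMIs 8 and 11.

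The NK cells of the libraries give unequal precision. The 21 control NK cells summed to 102612 UMIs (median 4459 a cell) and the 107 knockout NK cells to 410796 (median 3410), so 3 UMIs correspond to 29.2 CPM in control and 7.30 CPM in knockout. A control level below about that floor cannot be told from 0. No NK barcode of one library occurred in the other, although 46 barcodes did among all cells. Malat1, a nuclear RNA, was at 16246 CPM in control and 24382 CPM in knockout NK cells, and median mitochondrial shares were 1.67% and 1.17%. Its part in the gene values was not tested.

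Of the 128 cells, 8 also held at least 20 UMIs of a marker list of a non-lymphoid cell type, 2 in control and 6 in knockout. They held 19.4% of the control and 12.6% of the knockout NK UMIs. One control cell had 993 UMIs of 7 fibroblast genes, and the other had 203 UMIs of macrophage and monocyte genes, including all C1qa, C1qb and C1qc UMIs among the control NK cells. Among the 6 knockout cells, 1 held 866 UMIs of acinar enzyme genes. Of all fibroblast-list UMIs in NK cells, these cells held 995 of 1006 in control and 38 of 62 in knockout. Of the macrophage-list UMIs they held 207 of 245 and 50 of 199. Mast cell and basophil genes were at 0 in all 128 cells. The part of the 8 cells in the results was not tested, and values without the 8 cells are given below for lists and genes whose call or sign depends on them.

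The NK share of all kept cells was 0.180% in control (0.111 to 0.275) and 0.990% in knockout (0.812 to 1.20), which is 5.50 times as high (3.42 to 9.25). Without the 8 cells the counts were 19 and 101 and the ratio 5.74 (3.49 to 9.92). The ratio depended on the denominator. Cells with a UMI of Ptprc, the pan-leukocyte gene CD45, and no more than 5 keratin UMIs numbered 952 in control and 3249 in knockout, and NK cells were 2.21% (1.37 to 3.35) and 3.29% (2.71 to 3.97) of them. That ratio was 1.49 with an interval of 0.929 to 2.51, which includes 1. CD8 T cells, counted by at least 2 CD3-gene UMIs, a Cd8a or Cd8b1 UMI and no Ncr1 or Klrb1c UMI, were 111 and 751, a ratio of 7.30 (5.98 to 8.99). NK cells were 15.9% (10.1 to 23.3) of NK and CD8 T cells together in control and 12.5% (10.3 to 14.9) in knockout, and these intervals overlap. Among all leukocytes, a difference in the NK share was therefore not detectable at this depth. A share in dissociated tissue depends on how cells survive dissociation, which was not measured.

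NK cells with and without Gzma or Ccl5 differed unequally in number between the libraries. Gzma, which encodes the tryptase granzyme A, had a UMI in 8 of 21 control NK cells and 89 of 107 knockout NK cells. As a share of kept cells, NK cells with Gzma were 12 times as frequent in the knockout library (5.84 to 28.7), while NK cells without it numbered 13 and 18, a ratio of 1.49 (0.692 to 3.32). When a single Ncr1 or Klrb1c UMI was enough for membership, that last ratio was 2.28 (1.27 to 4.24), an interval above 1. Ccl5, a chemokine that attracts T cells and dendritic cells, also divided the cells unequally. NK cells with a Ccl5 UMI numbered 7 and 95, a ratio of 14.6 (6.84 to 37.4), and those without numbered 14 and 12, a ratio of 0.925 (0.391 to 2.15). With Gzmb the counts were 8 and 68 with a UMI and 13 and 39 without, and with Prf1 they were 12 and 78 with and 9 and 29 without. For both genes the cells without a UMI were also more frequent in the knockout library, by 3.24 (1.69 to 6.61) and 3.48 (1.6 to 8.35). For Xcl1, both kinds were more frequent in the knockout library, with ratios of 4.48 (2.41 to 8.95) for cells with a UMI and 7.15 (3.38 to 17.4) for cells without. These ratios are all of shares of kept cells. Among Ptprc cells the ratio for all NK cells was 1.49 (0.929 to 2.51), and ratios by transcript were not computed there. Set against the 952 control and 3249 knockout Ptprc cells, NK cells with Gzma or with Ccl5 were still more frequent in knockout. NK cells without Gzma (13 and 18) or without Ccl5 (14 and 12) were less frequent there. Those without Gzmb (13 and 39) or without Prf1 (9 and 29) were not more frequent there. No intervals were computed for these directions.

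The shares of cells with a UMI were compared at equal depth. With every cell thinned to 1000 UMIs, no NK cell was left out. Gzma was then seen in 28.6% (11.3 to 52.2) of the NK cells of the control library and 77.6% (68.5 to 85.1) of those of the knockout library, and Ccl5 in 28.6% (11.3 to 52.2) and 75.7% (66.5 to 83.5). The intervals of the 2 libraries did not overlap for either gene. Unthinned, the shares for Ccl5 were 33.3% and 88.8%. For Gzmb the thinned shares were 23.8% (8.22 to 47.2) and 51.4% (41.5 to 61.2), and for Prf1 33.3% (14.6 to 57.0) and 50.5% (40.6 to 60.3), with overlapping intervals. Xcl1 was in 38.1% (18.1 to 61.6) and 30.8% (22.3 to 40.5). Gzmc, a granzyme of activated and tissue-type NK cells, was in 19.0% (5.45 to 41.9) and 6.54% (2.67 to 13.0), and Klri2, a lectin-like receptor, in 19.0% (5.45 to 41.9) and 2.80% (0.582 to 7.98).

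**Figure D1:**
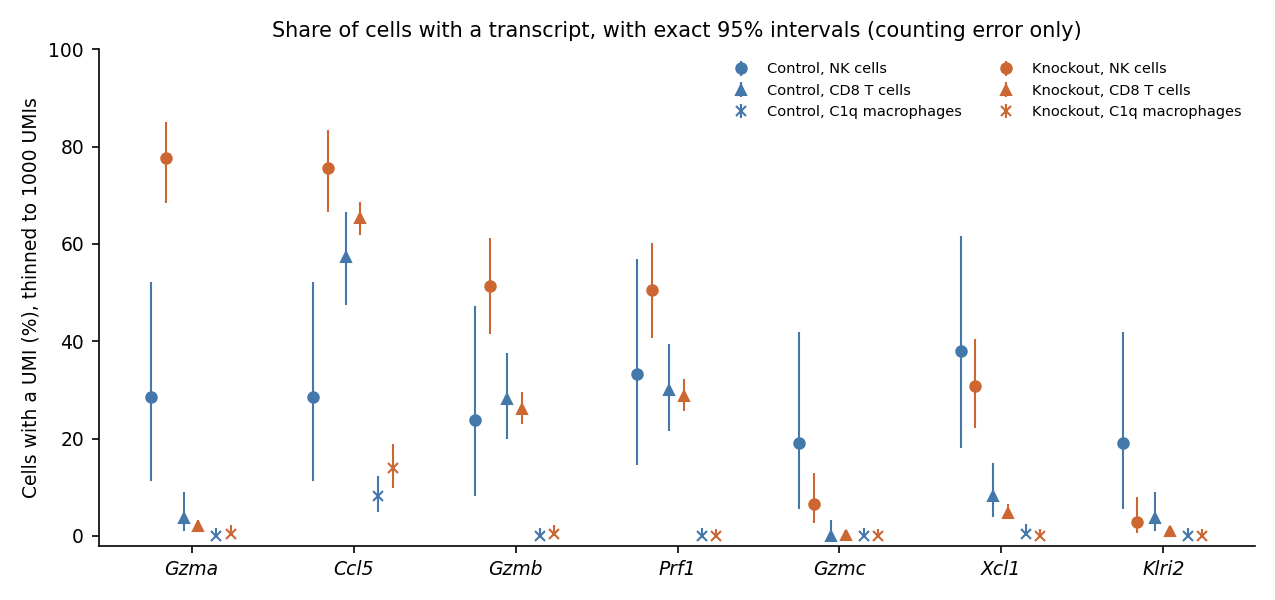
Percentage of cells with at least 1 UMI of each gene after thinning every cell to 1000 UMIs, in NK cells (circles), CD8 T cells (triangles) and C1q macrophages (crosses) of the control (blue) and knockout (orange) libraries, with exact 95% intervals. Gzma in NK cells stands at 28.6% in control and 77.6% in knockout, and macrophages lie near 0 for every gene but Ccl5.

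Shares in other cell types of the same libraries were read beside these, because droplets also hold free RNA. At 1000 UMIs, Gzma was found in 0 of 234 control and 1 of 250 knockout macrophages with at least 5 C1q UMIs, and in 0 and 2 of the 1000 keratin-high cells drawn from each library. Median depths were 4764.5 and 5903 UMIs for macrophages and 16212 and 17417.5 for keratin-high cells before thinning. Thinning from a greater depth also removes more free RNA, so the thinned keratin-high values can understate it. Unthinned, 0.149% and 0.725% of keratin-high cells had a Gzma UMI, and 2.28% and 8.20% a Ccl5 UMI. At 1000 UMIs, Ccl5 was in 8.12% of control and 14.0% of knockout macrophages and 0.100% and 1.50% of keratin-high cells. Whether the Ccl5 of macrophages was free RNA or their own was not tested. Gzma and Ccl5 shares in NK cells of both libraries lay above these values, although the control Ccl5 interval (11.3 to 52.2) overlaps that of control macrophages (4.96 to 12.4).

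**Figure D2:**
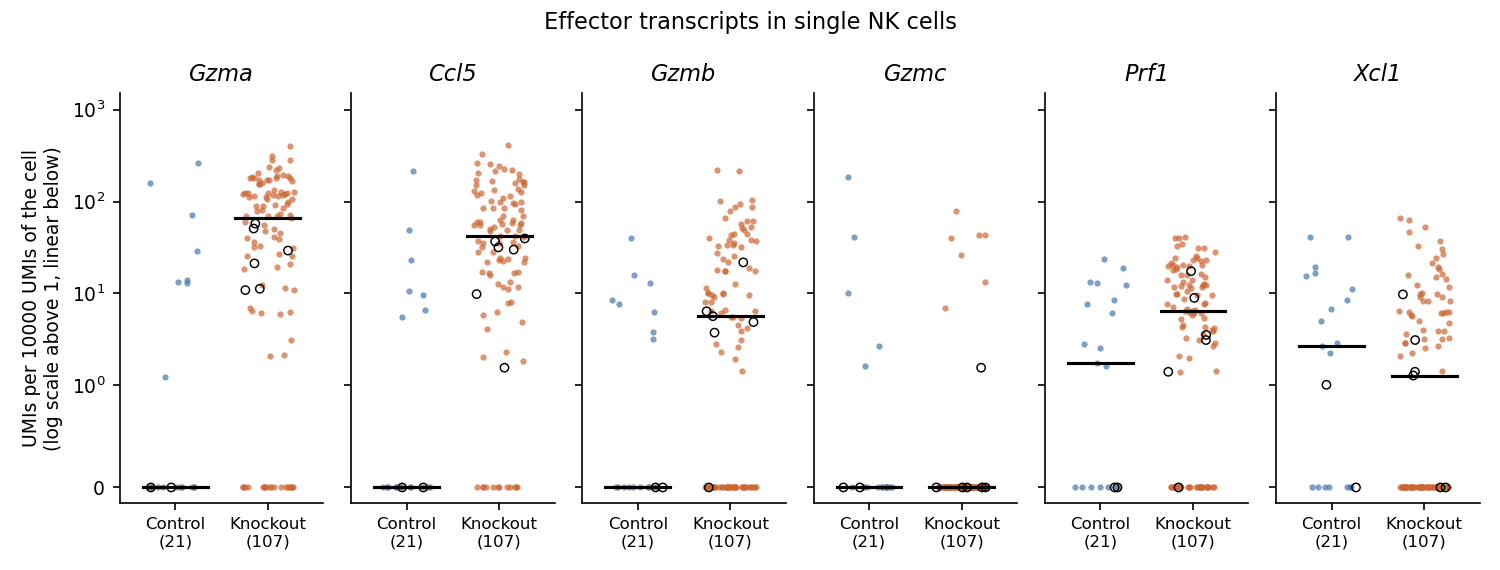
UMIs per 10000 UMIs of the cell (log scale above 1, linear below) for 6 effector genes in the 21 control and 107 knockout NK cells. Each dot is a cell, open circles are the 8 cells with markers of another cell type, and bars are medians, which are 0 in control and 66.3 in knockout for Gzma.

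Per cell, Gzma ran from 0 through a median of 0 to 262 UMIs per 10000 in control NK cells, and from 0 through a median of 66.3 to 407 in knockout NK cells. Ccl5 likewise had medians of 0 and 41.8 and maxima of 215 and 409. The highest control cells reached the range of the knockout cells in both genes, so the distributions overlapped. They differed in how many cells held the transcript, and Ccl5 also differed in level among cells with Gzma, as given below. Prf1, which encodes the pore-forming perforin, had medians of 1.77 and 6.37 and maxima of 23.6 and 41.1. For Xcl1 the median was lower in knockout, at 2.67 and 1.28, and the maximum higher, at 41.5 and 66.5.

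Gzma and Xcl1 together described the composition of the cells. Unthinned, cells with Xcl1 and no Gzma were 9 of 21 in control (42.9%, 21.8 to 66.0) and 14 of 107 in knockout (13.1%, 7.34 to 21.0). Cells with Gzma and no Xcl1 were 4 (19.0%, 5.45 to 41.9) and 49 (45.8%, 36.1 to 55.7), and cells with both were 4 and 40. At 1000 UMIs the cells with Xcl1 and no Gzma were 33.3% (14.6 to 57.0) and 13.1% (7.34 to 21.0), which overlap, and those with Gzma and no Xcl1 were 23.8% (8.22 to 47.2) and 59.8% (49.9 to 69.2), which do not. Gzma and Ccl5 occurred together in 5 control and 85 knockout cells.

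**Figure D3:**
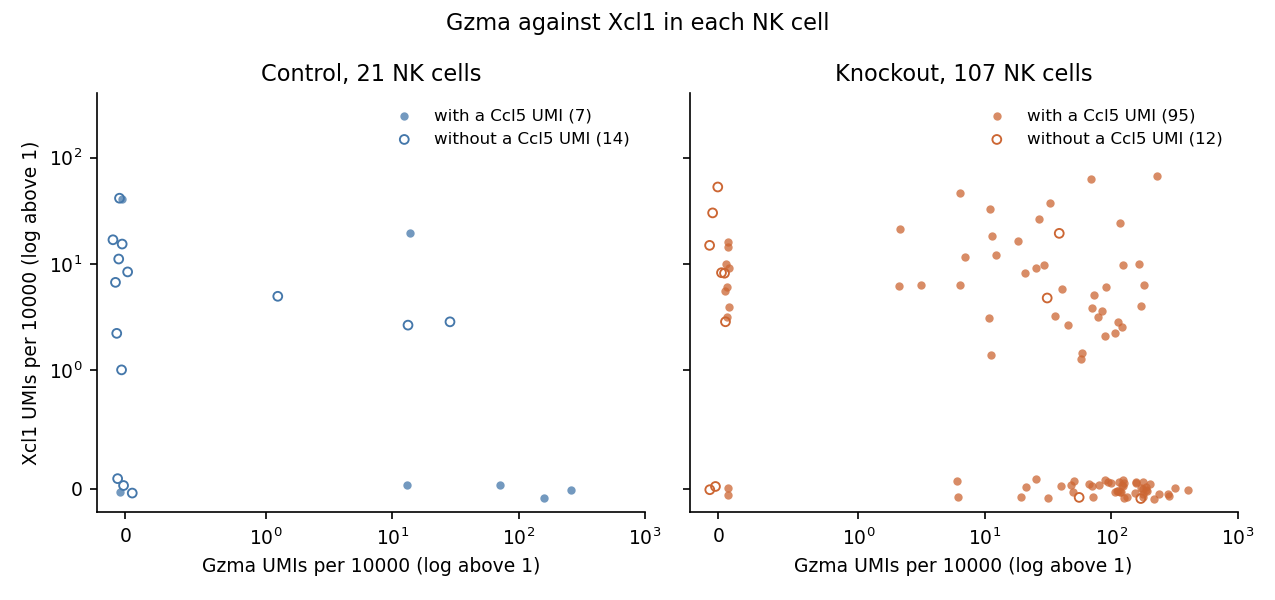
Gzma (horizontal) against Xcl1 (vertical), both as UMIs per 10000 UMIs of the cell on axes that are logarithmic above 1 and linear below, for each NK cell of the control and knockout libraries. Filled points have a Ccl5 UMI and open points do not, and 9 control and 14 knockout cells lie on the left edge with Xcl1 and no Gzma.

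Levels were also read within each kind of cell, without the 8 cells, and several of them rest on 1 cell. Among cells without Gzma (11 control, 18 knockout), the Ccl5 level was 187 CPM in control (85.4 to 355) against 2305 in knockout (1978 to 2671). One knockout cell held 99 of these 177 UMIs and one control cell 6 of 9, and without them the levels were 70.5 CPM (14.5 to 206) and 1085 CPM (857 to 1354). Within cells with Gzma (8 and 83), Ccl5 was at 3010 CPM (2460 to 3647) and 7758 CPM (7436 to 8089). One control cell held 82 of the 104 control UMIs, and without the top cell of each library the levels were 716 CPM (449 to 1084) and 7401 CPM. Gzmb in cells with Gzma was at 1042 CPM (730 to 1443) and 2529 CPM (2347 to 2722), and the control level was 682 CPM without its top cell. Prf1 there was at 1013 (706 to 1409) and 1151 (1029 to 1283), with overlapping intervals. Xcl1 was higher in cells without Gzma in both libraries, at 1785 CPM against 376 in control and 1081 against 613 in knockout. Without the top cells these were 1415 against 194 and 886 against 544. Itga1, which encodes the integrin CD49a of tissue-resident cells, was at 378 CPM (253 to 542) in knockout cells without Gzma and 124 (86.4 to 172) in those with it. Itga2, the integrin CD49b of conventional NK cells, showed the reverse there, at 52.1 CPM (14.2 to 133, 4 UMIs) and 368 CPM (301 to 446). In control the intervals of the kinds of cell overlapped, with Itga2 at 145 CPM (58.4 to 299) without Gzma and 57.9 CPM (7.01 to 209) with it.

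Summed over the NK cells of each library, levels were compared as CPM with log2 ratios of knockout over control (pseudocount 1 UMI) for the 4179 genes with at least 20 NK UMIs. Of these, 9.02% were at least 2-fold higher and 5.91% at least 2-fold lower in the knockout library, and the median log2 ratio was 0.06. With a pseudocount of 10 CPM the shares were 11.5% and 3.06% and the median was 0.17, so higher genes made up 78.9% of those past 2-fold instead of 60.4%. The split was 71.5% with a pseudocount of 0.5 UMIs and 14.8% with no minimum number of UMIs. Gene lists are read against these shares, and the words higher and lower below describe the 2 libraries. Some control values rest on very few cells, and this is stated where it matters. The Klra and Klrb1 receptor families and the granzymes are sets of near-identical genes whose reads can be assigned to the wrong member.

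Of the cytotoxic granule genes, 15 of 17 were read, 2 were at least 2-fold higher (Gzma and Gzmb), 1 lower (Gzmc) and 12 within 2-fold, with a median log2 ratio of 0.09 (-0.12 without the 8 cells). Gzma (ENSMUSG00000023132) was at 1881 CPM in control, with an interval of 1625 to 2166, and at 7232 CPM in knockout, with one of 6975 to 7497 and a log2 ratio of 1.94. A single control cell held 51.8% of the control Gzma UMIs, and without it the control level was 941 CPM and the log2 ratio 2.93. Gzmb, which encodes the caspase-cleaving granzyme B, was at 448 CPM (328 to 598) and 1874 CPM (1744 to 2012), a log2 ratio of 2.03. Prf1 was at 468 CPM (345 to 620) and 898 CPM (809 to 995), a log2 ratio of 0.92. Gzmc was at 1783 and 280 CPM (log2 ratio -2.67), but 1 control cell held 148 of the 183 control UMIs. Without it the control level was 370 CPM and the ratio interval 0.514 to 1.14, so the lower Gzmc level rests on that cell. Nkg7 (log2 ratio 0.30), Srgn, the granule proteoglycan (-0.33), and Cst7, an inhibitor of granzyme-processing cathepsins (-0.59), were within 2-fold. Ctsw, a cathepsin of cytotoxic lymphocytes, was at 370 and 667 CPM (0.82). Ctsc, the protease that activates granzymes and a gene named by size of change, was lower, at 234 and 60.9 CPM (-1.94).

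The chemokine and cytokine list had 8 of 13 genes read, 2 higher (Ccl5 and Ifng) and none lower, with a median log2 ratio of 0.17 (0.42 without the 8 cells). Ccl5 (ENSMUSG00000035042) was at 1101 CPM in control, with an interval of 908 to 1324, and at 6105 CPM in knockout, with one of 5869 to 6349 and a log2 ratio of 2.46. One control cell held 82 of the 113 control UMIs, and without it the control level was 314 CPM and the log2 ratio 4.24. Ifng, the macrophage-activating interferon, was low in both, at 39.0 CPM (4 UMIs) and 107 CPM (44 UMIs), a ratio interval of 1.0 to 10.5. Xcl1, which attracts XCR1-bearing type 1 dendritic cells, was at 975 CPM (793 to 1185) and 652 CPM (577 to 735), a log2 ratio of -0.59. Without the top control cell its ratio interval was 0.661 to 1.13. Ccl4 was level at 331 and 343 CPM, but the cell with macrophage markers held 28 of its 34 control UMIs. Without the 8 cells its log2 ratio was 2.22. Ccl3 was at 58.5 and 114 CPM, Tgfb1 at 117 and 124, and Csf2 and Il10 had no UMI. Of the death ligands, Fasl (log2 ratio 0.75), Tnfsf10, which encodes TRAIL (-0.82), and Ltb (-0.13) were within 2-fold, with a median of -0.13 (-0.35 without the 8 cells).

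Of the activating receptors and adaptors, 2 of 21 read genes were higher and 2 lower, with a median log2 ratio of 0.06 (-0.05 without the 8 cells). Klra4, which encodes the activating receptor Ly49D, was at 380 and 840 CPM (log2 ratio 1.11, and 0.85 without the 8 cells), and Klrb1a at 58.5 and 202 CPM (1.58). Klra8, the activating Ly49H, was at 409 and 168 CPM (-1.30), and Crtam, a receptor for an adhesion molecule on other cells, at 97.5 and 24.3 CPM (-2.0). Without its top control cell, the ratio interval of Crtam was 0.116 to 1.04. Klrk1, which encodes NKG2D, was at 507 and 745 CPM (0.53), Fcer1g at 1208 and 1526 CPM (0.33) and Tyrobp at 1842 and 1775 CPM (-0.06).

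Inhibitory receptors split. Of 13 read, 2 were higher and 4 lower, with a median log2 ratio of -0.26. Klra1 (Ly49A) was at 48.7 CPM (5 UMIs) in control and 270 CPM (111 UMIs) in knockout, a log2 ratio of 2.22. Klra5 had 0 UMIs in control and 31 in knockout, in 8 cells, which is 2.58-fold over a control floor of 3 UMIs. The lower limit of its ratio interval was 1.98. Klri2 was counted here by its place in the list, and whether it inhibits was not examined. It was at 205 CPM (127 to 313) and 31.6 CPM (16.9 to 54.1), a log2 ratio of -2.65, and -2.21 without the top control cell. Klrb1b was at 146 and 36.5 CPM (-2.0), but 1 control cell held 7 of its 15 control UMIs. Without that cell its log2 ratio was -1.27 and its ratio interval, 0.175 to 1.19, included 1. Klra3 was at 175 and 73.0 CPM (-1.29) and Lilrb4a at 87.7 and 41.4 CPM (-1.15). Klrd1, which encodes CD94, the partner of NKG2 receptors, was at 692 and 1132 CPM (0.69), and Klrc1 (NKG2A) at 107 and 94.9 CPM (-0.26). Among checkpoint genes, Pdcd1 had no UMI in either library and Lag3, Havcr2 and Tigit had 4, 2 and 4 UMIs in control and 6, 1 and 8 in knockout. In that list 7 of 15 genes were read, 3 were higher and the median log2 ratio was 0.75. The 3 were Cd28, Cd27 and Entpd1, of which Cd28 and Cd27 are costimulatory receptors and Entpd1 encodes the ectonucleotidase CD39. Cd28 had 0 and 34 UMIs, 2.83-fold over the floor. The ratio intervals of Cd27 (0.813 to 28.2) and Entpd1 (0.951 to 32.4) included 1, and Cd27 was at a log2 ratio of 1.17 and just under 2-fold without the 8 cells. Lilrb4a is in the same position, with an interval of 0.199 to 1.20.

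Of the receptors for cytokines that act on NK cells, 2 of 11 were higher and none lower, with a median log2 ratio of 0.49. These were Il2rg, the common gamma chain, at 127 and 275 CPM (log2 ratio 1.02, and 0.88 without the 8 cells), and Il12rb2, a subunit of the interleukin-12 receptor, at 87.7 and 234 CPM (1.28). The interleukin-18 receptor genes Il18r1 (185 and 380 CPM) and Il18rap (175 and 321 CPM) had log2 ratios of 0.97 and 0.81. Il2rb, shared by the receptors for interleukin-2 and interleukin-15, was at 672 and 901 CPM (0.40). The transforming growth factor beta receptor gene Tgfbr2 was at 273 and 180 CPM (-0.63), and at a log2 ratio of 0.04 without the 8 cells.

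Among transcription factors, 5 of 19 were higher, 1 was lower and the median log2 ratio was 0.23 (0.02 without the 8 cells). Irf8, which supports NK maturation, was at 195 and 465 CPM (log2 ratio 1.19), and Bach2, a repressor of lymphocyte effector programmes, at 87.7 and 253 CPM (1.39). Nfil3, needed for NK development, had 0 and 21 UMIs, and Gata3 0 and 22 UMIs, which is 1.75-fold and 1.83-fold over the control floor of 3 UMIs. Rora was the fifth, with 3 and 36 UMIs and a ratio interval of 0.947 to 15.2. Tcf7, a nuclear partner of Wnt signalling and a gene of less mature NK cells, was the one lower, at 205 CPM (127 to 313) and 97.4 CPM (69.6 to 133), a log2 ratio of -1.10. Without the top control cell its ratio interval was 0.340 to 1.23. Eomes (234 and 161 CPM, -0.58), Tbx21 (253 and 224 CPM, -0.22) and Id2 (575 and 582 CPM, -0.00) were within 2-fold.

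Since Porcn serves Wnt secretion, Wnt genes of the NK cells were also read. Of 17 Wnt targets and nuclear Wnt factors, 8 were read, and Tcf7 alone was past 2-fold, with a median log2 ratio of 0.02 (-0.23 without the 8 cells). Rnf43 (0.64), Znrf3 (0.54), Lef1 (0.19, and -0.24 without the 8 cells) and Ctnnb1 (-0.57) were within it. Axin2, a general Wnt target, had 0 and 1 UMIs, and Sp5, Lgr5, Notum and Dkk1 had none. Porcn itself had no UMI in the NK cells of either library, with upper interval limits of 35.9 CPM in control and 8.98 CPM in knockout. In C1q macrophages it had 5 UMIs in control and 0 in knockout, and in keratin-high cells 1055 and 504. Csf1r, which drives the Cre, had 6 UMIs in control NK cells, all in the cell with macrophage markers, and 0 in knockout NK cells. Wls, which escorts Wnt proteins to the surface, was at 341 CPM (238 to 474) and 665 CPM (588 to 748), a log2 ratio of 0.93.

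Genes of mature circulating and of tissue-resident NK cells were read as separate lists. Of 11 circulating-type genes read, 4 were at least 2-fold higher, 1 was lower and 9 had a log2 ratio above 0, with a median of 0.72 (0.52 without the 8 cells). Cma1 (1 and 27 UMIs) and S1pr5, a receptor for exit into the blood (1 and 19 UMIs), rest on 1 control UMI each, and Gzmb is described above. Itgam (CD11b) was the one lower at -1.24, and at -0.24 without the 8 cells. Of 9 tissue-resident genes read, none was 2-fold higher, 1 was lower and 3 were above 0, with a median of -0.50 (-0.58 without the 8 cells). Rgs1, a brake on chemokine receptor signalling, was the one lower, at 750 CPM (592 to 938) and 338 CPM (284 to 400), a log2 ratio of -1.16 and -0.96 without the 8 cells. Itga1 was at 136 and 161 CPM (0.16). Cxcr6, a receptor of tissue-resident lymphocytes, had 0 and 19 UMIs and fell short of the 20 UMIs required. In the trafficking list, Itga2 was at 87.7 CPM (9 UMIs) and 282 CPM (116 UMIs), a log2 ratio of 1.55, and Ccr2 (-0.10) and Itgal (0.11) were level.

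**Figure D4:**
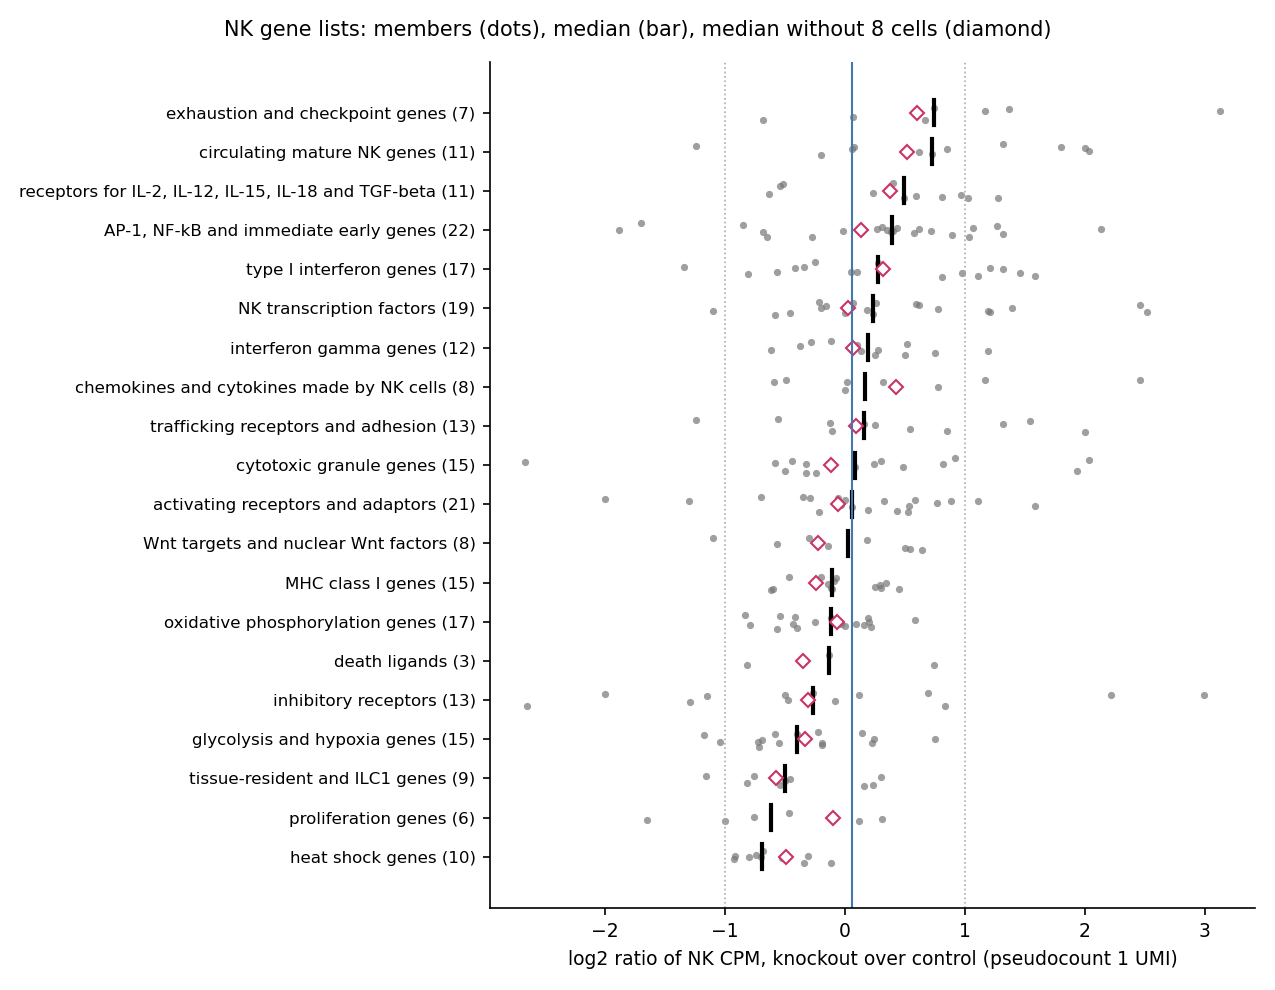
Log2 ratio of NK CPM, knockout over control, for the read members of 20 gene lists (grey dots, number read in parentheses), with the list median (black bar) and the median without the 8 cells that carried other cell types' markers (open diamond). The blue line is the median of all read genes at 0.06 and dotted lines mark 2-fold. Checkpoint (0.75) and circulating mature genes (0.72) lie farthest to the right and heat shock genes (-0.69) farthest to the left.

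All 10 heat shock genes had a log2 ratio below 0, with a median of -0.69 and none past 2-fold. That median was -0.025 when 3 Ncr1 and Klrb1c UMIs were required, and 0.11 when the rule was applied to cells thinned to 2000 UMIs. Hspa1a, an inducible chaperone, was at 341 and 241 CPM (log2 ratio -0.53) with 80.0% of its control UMIs in 1 cell, and without the 8 cells its log2 ratio was 1.45. Hspa1b likewise turned from -0.92 to 0.69. The constitutive chaperones kept their direction without the 8 cells, with Hspa8 at -0.80 and -0.66 and Hsp90aa1 at -0.92 and -0.64. Of the immediate early genes, 5 of 22 were higher and 2 lower, with a median of 0.39 (0.14 without the 8 cells). Ier2, a gene induced within minutes of stimulation, was at 39.0 CPM (4 UMIs) and 212 CPM (87 UMIs), a log2 ratio of 2.14, and Junb at 263 and 570 CPM (1.07). Fos (0.31, and -0.01 without the 8 cells) and Jund (0.27) were within 2-fold, and so was Fosb (-0.02).

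Of 17 type I interferon genes read, 5 were at least 2-fold higher and 1 was lower, with a median of 0.28. Without the 8 cells the median was 0.32 over these genes and 0.60 over the 10 that still had 20 UMIs. Isg15 had 3 and 43 UMIs (log2 ratio 1.46, and 2.74 without the 8 cells), and Ifi27l2a was lower (-1.34), with 72.0% of its control and 77.5% of its knockout UMIs in 1 cell each. Without the 8 cells the log2 ratio of Ifi27l2a was -0.31, so the only lower call of the list rests on those cells. Of 12 interferon gamma genes, only Irf8 was past 2-fold, and the median was 0.20. All 15 MHC class I genes lay within 2-fold (median -0.10), as did all 17 oxidative phosphorylation genes (-0.11). Of 15 glycolysis and hypoxia genes, 2 were lower, Slc2a1 (-1.04, and -0.58 without the 8 cells) and Bnip3 (-1.17), with a median of -0.40. Few NK cells showed cycling transcripts. Mki67 had 13 UMIs in control and 2 in knockout, and the proliferation list had 6 of 22 genes read and a median of -0.61, which was -0.10 without the 8 cells, and 0.02 over the 4 genes that then still had 20 UMIs.

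By the rule of size, the 12 genes with the largest higher values all had 0 control UMIs, so levels are given over the control floor of 3 UMIs. These folds leave out counting error in knockout. The lower limits of the ratio intervals were smaller, from 2.72 for Angpt1 to 1.64 for Ncald. Angpt1, which encodes the TIE2 ligand angiopoietin-1, had 42 knockout UMIs in 20 cells and was 3.50-fold over the floor. Pdpk1, the kinase that activates AKT, had 36 UMIs (3.0-fold) and Mpp7 33 (2.75-fold). The others were Atg10, Klra5, Txndc11, Cdyl2, Ctr9, Il10ra, Hibadh, Suds3 and Ncald, with 26 to 31 knockout UMIs and folds over the floor from 2.16. Il10ra encodes the ligand-binding chain of the interleukin-10 receptor. The 12 with the largest lower values began with Klri2, Ilk (log2 ratio -2.22) and Eif4e (-2.08), the gene of the cap-binding translation factor. They went on with Klrb1b, Crtam, Ero1l, Ctsc, Tet3, Ctsa, Elp2, AI662270 and Rexo2, down to -1.83 for Rexo2. These rest on 10 to 24 control UMIs each. All 24 stayed past 2-fold without the 8 cells. For the 12 higher genes this was nearly fixed beforehand, since they had no control UMI to lose. These 12 were taken from 281 eligible higher genes, and the 12 lower from 125. Without the control cell with the most UMIs of each gene, the 12 lower genes had log2 ratios of -2.21 to -1.23, and the ratio intervals of 5 of them then included 1. Those 5 were Klrb1b, Crtam, Ero1l, Tet3 and Ctsa.

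NK cells and CD8 T cells came from the same 2 libraries, and their values are set side by side. They share the libraries and the pooled mice. Of the 10482 genes read in CD8 T cells, 5.5% were at least 2-fold higher and 5.91% lower. Gzma was at 102 CPM in control and 22.6 CPM in knockout CD8 T cells, where 1 cell held 78.2% of the 55 control UMIs. Gzmb was at 1170 and 586 CPM and Prf1 at 1053 and 555 CPM in CD8 T cells, both lower in the knockout library, whereas in NK cells both were higher there. The top control CD8 T cell of each gene held 34.6% of the Gzmb and 16.4% of the Prf1 UMIs. At 1000 UMIs, 28.2% of control and 26.2% of knockout CD8 T cells had a Gzmb UMI, and 30.0% and 28.8% a Prf1 UMI. The intervals of these shares overlapped, so the lower CD8 T levels were not seen in how many cells held the transcript. Ccl5 was higher in both, at 3265 and 5573 CPM in CD8 T cells. Ccl3 was at 3121 and 513 CPM in CD8 T cells against 58.5 and 114 CPM in NK cells. Tcf7 was at 27.8 and 71.3 CPM in CD8 T cells. Of the 24 genes named by size, none of the 12 higher and 3 of the 12 lower were past 2-fold in the same direction in CD8 T cells.

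NK cells held 17.6% (15.4 to 19.9) of all Gzma UMIs of kept cells in control and 57.1% (55.7 to 58.4) in knockout. CD8 T cells held 5.00% and 1.69%, so most Gzma UMIs of the control library lay in cells outside both groups. Such shares also depend on the number of NK cells, 21 and 107. For Gzmb the NK shares were 5.04% and 15.5%, and for Ccl5 2.29% and 6.72%. For Xcl1 they were 34.5% (29.0 to 40.3) and 15.4% (13.7 to 17.1), while CD8 T cells held 32.8% and 40.2% of it. For Gzmc they were 59.8% and 16.4%. The share of Ncr1, which chose the cells, was 69.1% and 67.9%, the remainder lying in cells outside the limits of the rule.

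Compared directly with CD8 T cells of the same library, genes that were not in the rule also ranked high. Among the 15 genes with the largest ratio of NK to CD8 T levels, Aoah, Gzmc and Klra8 were in both libraries, beside the rule genes Ncr1 and Klrb1c. Aoah encodes acyloxyacyl hydrolase, which inactivates lipopolysaccharide, and was at 214 and 314 CPM in NK cells against 0 and 5.15 CPM in CD8 T cells. Eomes was at 234 and 161 CPM in NK cells and 44.6 and 30.1 CPM in CD8 T cells. In the control library, 8 of the other places were taken by genes with at least 88.9% of their UMIs in 1 cell, such as Ccl12, C1qc, Ebf1 and Col14a1. These levels compare groups that the rule set apart and carry no test.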

How the data were processed

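The files hold raw counts, whole-number UMIs per gene and cell barcode, and per the file headers the deposited matrices came from Cell Ranger 8.0.0, while the submitters' processing notes name Cell Ranger 3.1.3 and the mm10 build. The deposited matrices held 13766 control and 12251 knockout barcodes with 173934025 and 137527647 UMIs, of which 84.7% and 88.2% of barcodes were kept. Median depth was 12235 and 10321 UMIs per kept cell. UMIs were summed over the NK cells of a library and scaled to CPM with exact Poisson intervals. Shares carry Clopper-Pearson intervals, and ratios exact conditional intervals. Each group is 1 pooled library, so no test, SD or adjusted p was computed, and mice could not be told apart. UMI counting merges PCR copies, and the intervals leave out differences between mice, dissociation and loading. Genes with 20 or more NK UMIs were read, with a pseudocount of 1 UMI. Named genes were the 12 highest and 12 lowest log2 ratios whose interval excluded 1. They also needed a level of at least 0.5 times that of the whole library, UMIs in at least 5 NK cells and at most 50% of UMIs in 1 cell, all in the library where the gene was higher. Mitochondrial, ribosomal, sex-linked, rule and other-cell marker genes were left out. Every member of the fixed gene lists could be named as well. The members and lists were chosen with earlier results of these data known. Doublets were kept, and Scrublet (scanpy 1.11.5) called 1.27% and 3.16% of kept cells, 0 and 1 of them NK cells. Alternatives varied the rule, cell filter, doublets, depth, pseudocount, minimum and denominator. Scripts used Python 3.11.15, numpy 2.4.6, scipy 1.17.1 and pandas 2.3.3, and were tested on simulated data. Promoters were taken from RefSeq (GRCm38.p6). Some list members are not reported here.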

Additional observations from a re-analysis of the deposited data

Results flagged for a closer look

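In 8 list genes, the knockout over control ratio lay on opposite sides of 1 in NK cells and CD8 T cells, by at least 1.5-fold each and with both counting intervals excluding 1. They were picked from all list genes by these values, with 1 library per group, so the difference between the cell types was not tested. The NK minus CD8 T difference in log2 ratio was 4.12 for Gzma, 3.03 for Gzmb and 1.84 for Prf1. In CD8 T cells these had log2 ratios of -2.18, -1.0 and -0.92, and 5 control CD8 T cells held all their Gzma UMIs, 78.2% of them in 1 cell. The top control CD8 T cell of each gene held 34.6% of the Gzmb, 16.4% of the Prf1 and 24.25% of the Ifng UMIs. The difference was 2.58 for Ifng, which was at 743 CPM in control and 279 CPM in knockout CD8 T cells and had 4 UMIs in control NK cells. It was 3.21 for Itga2, at 24.1 and 7.98 CPM in CD8 T cells, and 2.37 for Isg15, where 1 cell held 64.1% of the control CD8 T UMIs. The order was the other way for Ifi27l2a, with a difference of -2.91 and CD8 T levels of 254 and 756 CPM, and for Tcf7, with one of -2.37. The lower CD8 T values of Gzma and Isg15 in knockout rest on 1 control CD8 T cell each. Without the top control NK cell, the NK ratio interval of Tcf7 was 0.340 to 1.23. Without the 8 NK cells that carried other cell types' markers, the NK log2 ratio of Ifi27l2a was -0.31 instead of -1.34, which is under the 1.5-fold used to pick it.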

How the results depend on the processing

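No paired analysis was possible because each group has 1 library, and for the same reason no library could be left out. Of 41 alternative ratios of cell shares, 40 stayed within the counting interval and 1 moved, the NK share of Ptprc cells with a ratio of 1.49. Of the list medians, 274 alternatives stayed, 4 moved and 1 turned. A median stayed when it lay between the medians of its members' lower and upper interval limits, a wide band with 21 control cells. It turned only when its sign changed and that band excluded 0. The checkpoint median thus stayed although it reached -0.13, and the Wnt median although it ran from -0.53 to 0.50. The moved ones were death ligands at -0.71 with 3 rule UMIs required and -0.82 with no UMI minimum, heat shock genes at -0.025 with 3 rule UMIs, and proliferation genes at -2.0 with no minimum. Heat shock genes turned to 0.11 with the rule applied at 2000 UMIs. The medians of the chemokine, cytokine receptor, circulating mature, tissue-resident, death ligand and oxidative phosphorylation lists kept their sign under all their alternatives, and those of the other 14 lists did not. Hspa1b turned to 0.87 with 3 rule UMIs, 0.74 at 2000 UMIs, 0.69 without the 8 cells, 1.01 without cells holding a UMI of 8 other-cell genes and 0.88 without its top control cell. The causes were not tested. Thinned to 2000 UMIs, the knockout shares were 87.0% for Ccl5, 41.0% for Xcl1 and 64.0% for Prf1. Without thinning, the knockout shares were 88.8% for Ccl5, 50.5% for Xcl1, 63.6% for Gzmb and 72.9% for Prf1, and the control shares 61.9% for Xcl1 and 57.1% for Prf1. Of single-gene values, 468 stayed, 42 moved and 5 turned from a ratio whose interval excluded 1, all 5 of Hspa1b. Hspa1a, whose interval included 1, also changed sign, to 1.45 without the 8 cells and 1.49 without its top control cell. Leaving out the 8 cells or a gene's top cell, the pseudocount of 10 CPM and the splits by Gzma and Ccl5 under other rules were chosen after seeing the data. The 21 control cells limit every control value.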
